A study of Mus musculus with 12 samples.

Results

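The 9 genes described here encode the CD3 chains of the T cell receptor (TCR) complex (Cd3d, Cd3e, Cd3g, and Cd247) and the proteins that act next to it (Lck, Zap70, Lat, Lcp2, and Plcg1). They were chosen by name, as known parts of the receptor and of its first signaling steps, with earlier results of these data known. They make up 9 of the 25078 genes in the deposited tables. They were measured with RNA-Seq in donor T cells from the liver of WT BALB/c recipients on day 6 after hematopoietic cell transplantation (HCT). Recipients were lethally irradiated and given T cell-depleted bone marrow of WT C57BL/6 mice together with CD90.2+ T cells of 1 of 3 donor types, all on the C57BL/6 background. WT donors were unmodified. STAT3ko donors lacked Stat3 in T cells, through floxed Stat3 alleles and a Cre driven by the CD4 promoter. STAT3ko PD-1ko donors carried the same Stat3 deletion and also lacked PD-1, the inhibitory receptor encoded by Pdcd1, in all cells. Donor CD4+ and CD8+ T cells were sorted separately, each library represents cells combined from 3 recipients, and each of the 6 groups had 2 libraries, numbered replicate 1 and 2. The age of the mice is not given in the sources used here, and donors that lacked PD-1 alone were not analysed here.

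In a T cell, the αβ receptor recognizes antigen but has no signaling tail of its own. The CD3γ, CD3δ, CD3ε, and ζ chains carry the tyrosine motifs (ITAMs) that the kinase LCK phosphorylates, after which ZAP-70 binds the motifs and phosphorylates the adaptors LAT and SLP-76 (the product of Lcp2). These adaptors gather phospholipase PLC-γ1, which cleaves a membrane lipid into the messengers that release calcium and activate Ras and protein kinase C. Alloreactive T cells of an HCT graft depend on this cascade when they meet the tissue antigens of the host.

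The total was 21676125 to 24551477 counts per library, and the 9 genes together took 0.371% to 0.551% of them. All 9 genes passed the filter on low counts in both subsets, the fewest counts being those of Plcg1, so that the spread between libraries and not the depth limits the precision. Levels within a gene are CPM (counts relative to the library total, after TMM scaling), and levels between genes are compared as the deposited RPKM values, which also divide by exon length. Cells were sorted on surface TCRβ, a chain that reaches the surface together with CD3. The purity of the sort was not measured here, and levels of marker genes of other cells are given at the end. In bulk RNA, fewer cells of a type and less RNA per cell cannot be told apart.

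The targeted genes were examined first. Stat3 was at 369 and 467 CPM in the CD4+ WT libraries, 139.9 and 164 in CD4+ STAT3ko, and 157 and 219 in CD4+ STAT3ko PD-1ko. In CD8+ T cells it was at 397 and 384 CPM in WT, 149 and 136 in STAT3ko, and 154 and 235 in STAT3ko PD-1ko. The libraries of both mutant groups lay below those of WT in each subset, and the difference was a log2 fold change of -1.13 (edgeR adjusted p = 0.0180) for CD4+ STAT3ko PD-1ko against WT, and CD8+ STAT3ko PD-1ko had 0.501 times the WT level (adjusted p = 0.0177). For STAT3ko against WT it was -1.46 in both subsets, with adjusted p-values of 0.0550 for CD4+ (0.00197 with the replicate number as a block in the fit) and 0.108 for CD8+ (0.0920). Counts were taken over the whole Stat3 gene, so that reads from exons outside the deletion are included. Pdcd1 was at 55.1 and 26.0 CPM in CD4+ STAT3ko PD-1ko against 247 and 235 in WT, a log2 fold change of -2.55 (adjusted p = 0.00566). In CD8+ STAT3ko PD-1ko it was at 93.6 and 65.6 against 376 and 307 in WT, a log2 fold change of -2.09 (adjusted p = 0.00243).

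The labelled subsets were checked against their coreceptor genes. Cd4 was at 1242 to 1887 CPM in the 6 CD4+ libraries and at 0.356 to 2.73 in the 6 CD8+ libraries. Cd8a was at 589 to 1339 CPM in the CD8+ libraries and at 0.424 to 5.64 in the CD4+ libraries. The coreceptors themselves were lower without PD-1 and STAT3. Against WT, Cd4 fell by 0.52 on the log2 scale (adjusted p = 0.0375) in CD4+ STAT3ko PD-1ko, and Cd8a fell by 1.09 (adjusted p = 0.00414) and Cd8b1 by 0.87 (adjusted p = 0.00531) in CD8+ STAT3ko PD-1ko.

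The members sit on 6 chromosomes, and the genes for CD3γ, CD3δ, and CD3ε lie together on chromosome 9 (mm10), where the start sites of Cd3g and Cd3d face away from each other at a distance of 1355 bases. The 250 bases before the start site are shown for 6 members, because 5 of them (Cd3d, Cd247, Lat, Lcp2, and Plcg1) passed the test in the comparison of CD8+ STAT3ko PD-1ko with WT and 1 (Cd3e) passed it in no comparison. Lck also passed it but has several start sites and is not shown. The sequences are from RefSeq (GRCm38.p6, 5′ to 3′ on the strand of the gene). Cd3d is at chr9:44981536-44981785 (+), Cd3e at chr9:45009612-45009861 (-), Cd247 at chr1:165788431-165788680 (+), Lat at chr7:126369569-126369818 (-), Lcp2 at chr11:34046678-34046927 (+), and Plcg1 at chr2:160731060-160731309 (+). Capitals mark AGGAAG, a core that ETS factors bind, and TTCNNNGAA, a core that STAT proteins bind, on either strand.
Cd3d: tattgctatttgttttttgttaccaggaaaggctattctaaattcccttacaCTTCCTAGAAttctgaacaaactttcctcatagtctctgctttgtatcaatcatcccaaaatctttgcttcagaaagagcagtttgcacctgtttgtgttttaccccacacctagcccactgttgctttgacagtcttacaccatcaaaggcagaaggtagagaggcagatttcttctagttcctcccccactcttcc
Cd3e: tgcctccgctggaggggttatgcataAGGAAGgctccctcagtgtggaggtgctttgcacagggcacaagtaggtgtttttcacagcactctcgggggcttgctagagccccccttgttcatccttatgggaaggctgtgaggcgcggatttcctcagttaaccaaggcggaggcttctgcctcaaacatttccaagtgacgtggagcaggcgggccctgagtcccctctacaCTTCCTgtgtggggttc
Cd247: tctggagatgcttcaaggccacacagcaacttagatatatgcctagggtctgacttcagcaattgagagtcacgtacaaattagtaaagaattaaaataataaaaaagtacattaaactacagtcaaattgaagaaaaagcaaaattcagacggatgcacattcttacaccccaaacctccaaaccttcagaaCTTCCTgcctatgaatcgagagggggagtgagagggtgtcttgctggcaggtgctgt
Lat: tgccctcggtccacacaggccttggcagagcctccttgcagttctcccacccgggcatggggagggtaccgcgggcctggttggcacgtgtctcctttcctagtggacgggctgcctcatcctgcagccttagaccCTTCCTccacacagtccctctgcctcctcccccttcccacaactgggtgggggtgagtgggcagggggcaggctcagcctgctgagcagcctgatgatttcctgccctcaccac
Lcp2: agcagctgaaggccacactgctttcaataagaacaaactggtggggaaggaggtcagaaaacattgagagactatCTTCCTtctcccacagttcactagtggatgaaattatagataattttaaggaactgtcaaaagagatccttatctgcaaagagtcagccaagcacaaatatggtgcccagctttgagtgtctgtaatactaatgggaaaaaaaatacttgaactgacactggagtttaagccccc
Plcg1: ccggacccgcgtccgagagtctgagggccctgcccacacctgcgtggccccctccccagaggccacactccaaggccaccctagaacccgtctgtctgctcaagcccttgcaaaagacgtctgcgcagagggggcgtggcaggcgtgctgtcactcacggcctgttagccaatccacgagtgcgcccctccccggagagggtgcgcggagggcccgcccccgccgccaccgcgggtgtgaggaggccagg
In Cd3d the capitals are an AGGAAG match on the other strand that overlaps a TTCNNNGAA match. The motifs were chosen after the sequences had been seen. AGGAAG stood in 9 of the 12 start-site windows of the 9 members (Lck has several start sites, as has Zap70), against 29.5% of the 32851 windows of the same length in the RefSeq table. TTCNNNGAA stood in 1 of the 12, that of Cd3d, against 7.0% of all windows, and TGTGGT, a core that RUNX factors bind, in 2 of the 12, those of 1 start site each of Lck and Zap70, against 14.0%. The Plcg1 and Cd3g windows and 1 of the 3 Zap70 windows hold no AGGAAG. A match is a run of letters and was not tested as a binding site.

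Cd3g had the highest and Plcg1 the lowest level per length in all 6 groups. In CD4+ WT T cells the mean was 623 RPKM for Cd3g, 518 for Lck, 418 for Cd3e, 418 for Lat, 316 for Cd3d, 208 for Zap70, 194 for Lcp2, 147 for Cd247, and 76.5 for Plcg1. The libraries overlapped only between the neighbours Cd3e and Lat in this order. In CD8+ WT T cells it was 666 RPKM for Cd3g, 497 for Cd3e, 479 for Lck, 354 for Cd3d, 309 for Lat, 152 for Zap70, 138 for Lcp2, 92.0 for Cd247, and 60.9 for Plcg1. Here the libraries of Cd3e (489 to 505 RPKM) and Lck (451 to 508) overlapped, and those of the other neighbours did not. Cd247, which encodes the ζ chain, was per length the lowest of the CD3 chain genes in every group. This place rests on the exon length used, 4604 bases for Cd247, 1457 for Cd3e, 1330 for Cd3d, and 1023 for Cd3g. In CPM, Cd247 had the highest mean of these genes in CD4+ WT (674, against 633 for Cd3g, 605 for Cd3e, and 417 for Cd3d). In CD8+ WT it had the lowest (418, with Cd3d next at 465). The RPKM of Cd247 was 0.440 and 0.284 times that of Cd3e in the 2 CD4+ WT libraries, 0.181 and 0.189 times in CD8+ WT, and 0.143 and 0.134 times in CD8+ STAT3ko PD-1ko.

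**Figure D1:**
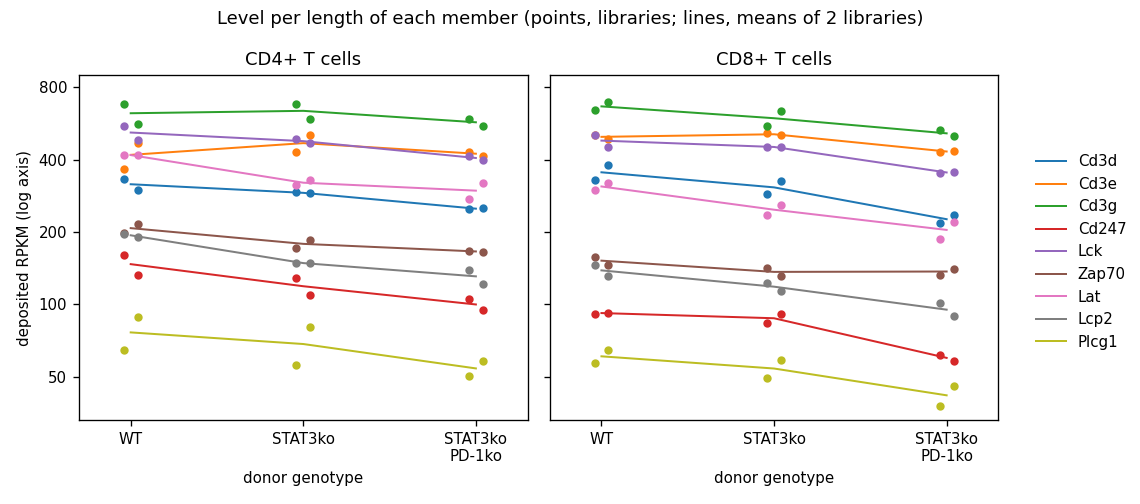
Deposited RPKM (log axis) of the 9 genes by donor genotype in CD4+ (left) and CD8+ (right) T cells. Points are libraries and lines join the means of 2 libraries. Cd3g lies highest and Plcg1 lowest in each group, and Cd247 lies just above Plcg1.

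To ask what the loss of STAT3 and PD-1 goes with in CD8+ T cells, STAT3ko PD-1ko was compared with WT. All 9 genes were lower in both STAT3ko PD-1ko libraries than in both WT libraries, and 6 of the 9 fell at an adjusted p under 0.05, namely Cd3d, Cd247, Lck, Lat, Lcp2, and Plcg1. Over all 12002 genes tested, 17.2% changed and 8.21% fell, and 29.8% were lower without overlap between the libraries. The median log2 fold change was -0.56 for the 9 genes and -0.00062 for all genes. Cd3e, Cd3g, and Zap70 did not pass the test. With the replicate number as a block in the fit, which takes out what the libraries of a number share, the same 6 and Cd3g (adjusted p = 0.0377) fell, where 24.7% of all genes changed and 12.1% fell.

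Among the CD3 chains, Cd3d was at 430.1 and 500.3 CPM in the CD8+ WT libraries and at 279 and 303 in STAT3ko PD-1ko. Cd247 was at 415 and 421 CPM in WT and at 273 and 261 in STAT3ko PD-1ko. Neither gene overlapped between the groups, and the log2 fold change was -0.67 (SE 0.13, adjusted p = 0.0169, edgeR quasi-likelihood test with Benjamini-Hochberg adjustment) for Cd3d and -0.64 (SE 0.10, adjusted p = 0.0107) for Cd247, which is 0.629 and 0.642 times the WT level. Cd3e was at 725 and 705 CPM in WT and at 604 and 614 in STAT3ko PD-1ko. Its libraries were apart as well, but the difference was smaller, with a log2 fold change of -0.22 (95% confidence interval -0.44 to -0.0087, adjusted p = 0.134). Cd3g was at 645 and 700.0 CPM in WT and at 522 and 495 in STAT3ko PD-1ko, with a log2 fold change of -0.39 (95% confidence interval -0.66 to -0.12, adjusted p = 0.0566).

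Of the 2 kinases, Lck was at 1149 and 1026 CPM in CD8+ WT and at 784 and 788 in STAT3ko PD-1ko. Both STAT3ko PD-1ko libraries lay below both WT libraries, with a log2 fold change of -0.46 (SE 0.10, adjusted p = 0.0210). Zap70 was at 424 and 394 CPM in WT and at 350.0 and 372 in STAT3ko PD-1ko. The libraries did not overlap, and the log2 fold change was -0.17 (95% confidence interval -0.42 to 0.076, adjusted p = 0.301).

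The adaptors and the phospholipase fell too. Lat was at 373 and 402 CPM in CD8+ WT and at 229 and 272 in STAT3ko PD-1ko, a log2 fold change of -0.62 (SE 0.13, adjusted p = 0.0205). Lcp2, which encodes the adaptor SLP-76, was at 520.2 and 468 CPM in WT and at 354 and 313 in STAT3ko PD-1ko, a log2 fold change of -0.56 (SE 0.11, adjusted p = 0.0183). In all of these the 2 groups did not overlap. Plcg1 was at 249 and 285 CPM in WT and at 163 and 197 in STAT3ko PD-1ko, a log2 fold change of -0.56 (SE 0.16, adjusted p = 0.0484).

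The 6 calls rest on few libraries. Without CD8+ STAT3ko PD-1ko replicate 2 none of the 9 genes passed (111 of all genes did, in place of 2066), without replicate 1 of that group 1 did (Cd247, with 835 of all genes), without WT replicate 2 it was 2 (Cd247 and Lck, 674 of all genes), and without WT replicate 1 it was 3 (Cd3d, Cd247, and Lat, 1107 of all genes). In these fits 1 group has a single library, which is assumed to vary like the others, and the log2 fold change of Cd247 stayed between -0.68 and -0.61.

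**Figure D2:**
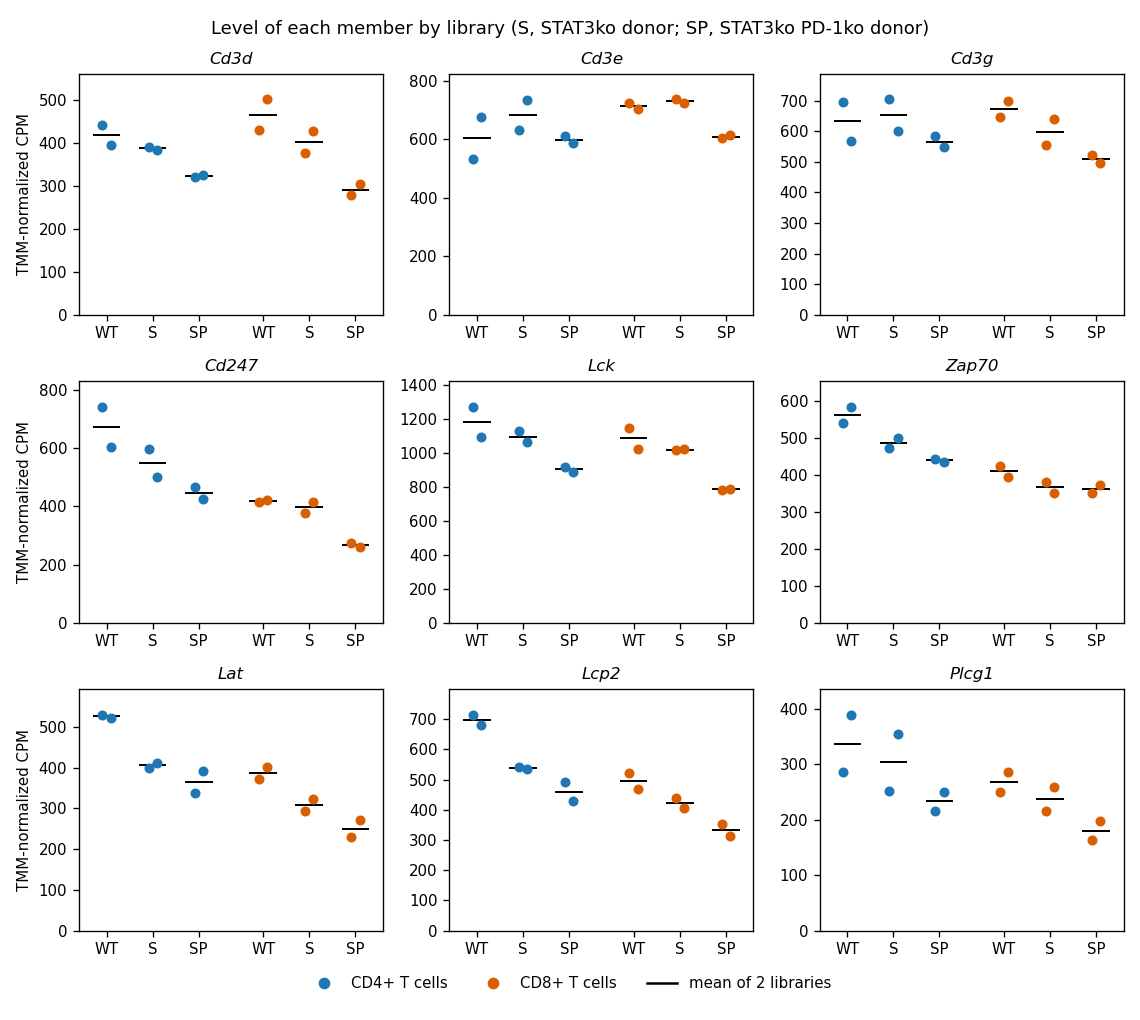
TMM-normalized CPM of each gene in the 12 libraries, from 0 on each axis. Points are libraries (blue, CD4+; orange, CD8+) and bars are means of 2 libraries; S stands for STAT3ko and SP for STAT3ko PD-1ko. All 9 genes are lower in both CD8+ STAT3ko PD-1ko libraries than in both CD8+ WT libraries.

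Against STAT3ko, a donor type that differs by design in PD-1, the CD8+ STAT3ko PD-1ko libraries had lower levels of 8 of the 9 genes without overlap (31.5% of all genes), and 2 genes fell (16.8% of all genes changed and 8.05% fell). The recipients differed as well. The study reports lethal graft-versus-host disease with severe liver damage from STAT3ko PD-1ko T cells, and only mild disease from STAT3ko T cells. The loss of PD-1 and the state of the host cannot be told apart here. The libraries of STAT3ko PD-1ko are shared with the comparison above, so that the results are not independent. Cd247 was at 379 and 415 CPM in STAT3ko, above the 273 and 261 of STAT3ko PD-1ko, with a log2 fold change of -0.56 (SE 0.10, adjusted p = 0.0166). Lck was at 1016 and 1024 CPM, above 784 and 788, with a log2 fold change of -0.36 (SE 0.10, adjusted p = 0.0432). Cd3d missed the threshold at -0.45 (adjusted p = 0.0527). With the replicate block 5 genes fell, these being Cd247, Lck, Cd3d (adjusted p = 0.0175), Plcg1 (-0.38, adjusted p = 0.0285), and Lcp2 (-0.33, adjusted p = 0.0396), where 24.4% of all genes changed and 11.9% fell. Zap70 was the exception to the lack of overlap, at 381 and 350.2 CPM in STAT3ko and 350.0 and 372 in STAT3ko PD-1ko, a log2 fold change of -0.0052 (95% confidence interval -0.25 to 0.24). The median of the 9 genes was -0.33 and that of all genes -0.0028. Without STAT3ko replicate 2 none of the 9 genes passed, as without STAT3ko PD-1ko replicate 2, when 461 and 2 of all genes did in place of 2017; without replicate 1 of either group Cd247 was the 1 that passed, and without either WT library 3 genes passed.

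The loss of STAT3 alone was not accompanied by a change that passed the test. In CD8+ T cells, 0 of the 9 genes changed between STAT3ko and WT (0 also by DESeq2 and by limma), where 0.0583% of all genes did, and at an unadjusted p under 0.05 there was 1, Lat, where 11% of all genes were. Lat was at 293 and 323 CPM in STAT3ko and at 373 and 402 in WT, without overlap, with a log2 fold change of -0.33 (95% confidence interval -0.63 to -0.029, adjusted p = 0.421). In CD8+ cells 6 genes were lower and 1, Cd3e, was higher in STAT3ko without overlap, where the shares of all genes were 21.1% and 22.5%, and Cd3e was at 736 and 725 CPM against 725 and 705, libraries that differ by less than 1 CPM at their nearest. The median of the 9 genes was -0.17, beside -0.0062 for all genes, and it was -0.081 without STAT3ko replicate 1.

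In CD4+ T cells, 0 of the 9 genes changed between STAT3ko and WT (0 also by DESeq2 and by limma), where 0.334% of all genes did (with the replicate block 0 of the 9 and 2.53% of all genes), and 2, Lat and Lcp2, had an unadjusted p under 0.05, as had 10.5% of all genes. Lat was at 399.8 and 412 CPM in STAT3ko and at 529 and 523 in WT, with a log2 fold change of -0.37 (95% confidence interval -0.70 to -0.043, adjusted p = 0.404). Lcp2 was at 541 and 535 CPM in STAT3ko and at 713 and 682 in WT, with a log2 fold change of -0.37 (95% confidence interval -0.68 to -0.063, adjusted p = 0.365). Both genes were lower in each STAT3ko library than in each WT library, as were 5 of the 9 genes, where 19.4% of all genes were. The median of the 9 genes was -0.15, beside 0.011 for all genes.

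In CD4+ T cells, STAT3ko PD-1ko had lower levels of 7 of the 9 genes than WT without overlap (29.5% of all genes), and 1 gene, Lcp2, fell (12.9% of all genes changed and 5.65% fell). Lcp2 was at 490.4 and 430.1 CPM in STAT3ko PD-1ko against 713 and 682 in WT, with a log2 fold change of -0.58 (SE 0.13, adjusted p = 0.0305). Cd247 (log2 fold change -0.57, adjusted p = 0.0543) and Lat (-0.50, adjusted p = 0.0555) just missed the threshold. With the replicate block 6 of the 9 genes fell, where 26.0% of all genes changed and 12.2% fell. These were Lcp2 (adjusted p = 0.00704), Cd247 (0.00715), Lat (0.0136), Plcg1 (0.0194), Lck (0.0403), and Cd3d (0.0489), with log2 fold changes close to those without the block. Cd247 was at 468 and 424 CPM in STAT3ko PD-1ko and at 741 and 606 in WT, without overlap. Lat was at 338 and 392 CPM in STAT3ko PD-1ko and at 529 and 523 in WT, again without overlap. Cd3e was at 609.5 and 586 CPM and at 533 and 676 in WT, which overlap, with a log2 fold change of 0.0042 (95% confidence interval -0.38 to 0.39, adjusted p = 0.992). Its sign turned in 5 of the other settings, among them DESeq2 at -0.015. The median of the 9 genes was -0.36, beside -0.011 for all genes. Lcp2 was not called without either WT library or without either STAT3ko PD-1ko library, when 0 of the 9 genes passed and, of all genes, 676 and 575 without WT replicate 1 and 2 and 147 and 62 without STAT3ko PD-1ko replicate 1 and 2 did, in place of 1538. Without STAT3ko replicate 1 or 2 Cd247 passed too and the count was 2, when 1940 and 1947 of all genes did.

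The remaining members in CD4+ T cells moved less or varied more. Cd3d was at 439.8 and 394 CPM in WT, 391 and 382 in STAT3ko, and 321 and 324 in STAT3ko PD-1ko. Lck was at 1269 and 1094 CPM in WT, 1128 and 1064 in STAT3ko, and 919.7 and 889.9 in STAT3ko PD-1ko. Both genes had their lowest levels in STAT3ko PD-1ko, and against WT their log2 fold changes of -0.35 and -0.36 had adjusted p-values of 0.130 and 0.113. Plcg1 was at 286 and 388 CPM in WT, 251 and 355 in STAT3ko, and 216 and 250.0 in STAT3ko PD-1ko, and its WT libraries lay far apart, as did its STAT3ko libraries. Zap70 was at 539 and 582 CPM in WT, 471 and 500.0 in STAT3ko, and 442 and 435 in STAT3ko PD-1ko, and Cd3g was at 697 and 569, 704 and 601, and 585 and 548 CPM in the same order. Plcg1 and Zap70 did not overlap between STAT3ko PD-1ko and WT and Cd3g did, and none of the 3 passed the test without the replicate block. With it Plcg1 passed, as given above, and Zap70 (adjusted p = 0.0531) and Cd3g (adjusted p = 0.403) did not.

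Between CD4+ STAT3ko PD-1ko and STAT3ko, all 9 genes were lower in both STAT3ko PD-1ko libraries (30.8% of all genes were lower without overlap), but 0 changed (0 at an unadjusted p under 0.05, by edgeR, and 0 by DESeq2 and limma), where 11.1% of all genes changed, 5.03% downwards, and 29.4% had an unadjusted p under 0.05. Of all genes, 1324 changed in this comparison, 569 without STAT3ko replicate 2, 66 without STAT3ko PD-1ko replicate 1, and 0 without STAT3ko PD-1ko replicate 2, so that no CD4+ call against STAT3ko was made without the latter library. With the replicate block it was 0 of the 9 and 26.0% of all genes. The log2 fold changes ran from -0.36 for Plcg1 to -0.13 for Zap70, with a median of -0.21, beside -0.013 for all genes. An interaction term over all 12 libraries compared the size of each genotype difference between CD8+ and CD4+ T cells, and 0 of the 9 genes passed for any of the 3 comparisons (0 at an unadjusted p under 0.05, and 0 by DESeq2 and limma). The study took its CD8+ cells from the same recipient livers as its CD4+ cells. Replicate 1 deviations correlated between the subsets with r of 0.63 in WT, 0.63 in STAT3ko, and 0.75 in STAT3ko PD-1ko. No fit paired the subsets within a genotype and replicate number, so these p-values leave the sharing out. An unadjusted p under 0.05 was found for 1.85% of all genes for STAT3ko against WT, 4.43% for STAT3ko PD-1ko against WT, and 3.59% for STAT3ko PD-1ko against STAT3ko. Of 12334 genes, 0.00811% passed for STAT3ko PD-1ko against WT, for which the estimates ran from -0.31 to 0.17, and 0% for the other 2 comparisons. Over all genes this count depends on the tool, being 1 for STAT3ko PD-1ko against WT with edgeR, 75 with DESeq2, 46 with limma, and 28 (0.227%) with the replicate block. Of the 27 estimates (9 genes in 3 comparisons), 14 changed sign when 1 of the libraries was left out. The larger number of calls in CD8+ T cells was therefore not shown to be a difference between the subsets.

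**Figure D3:**
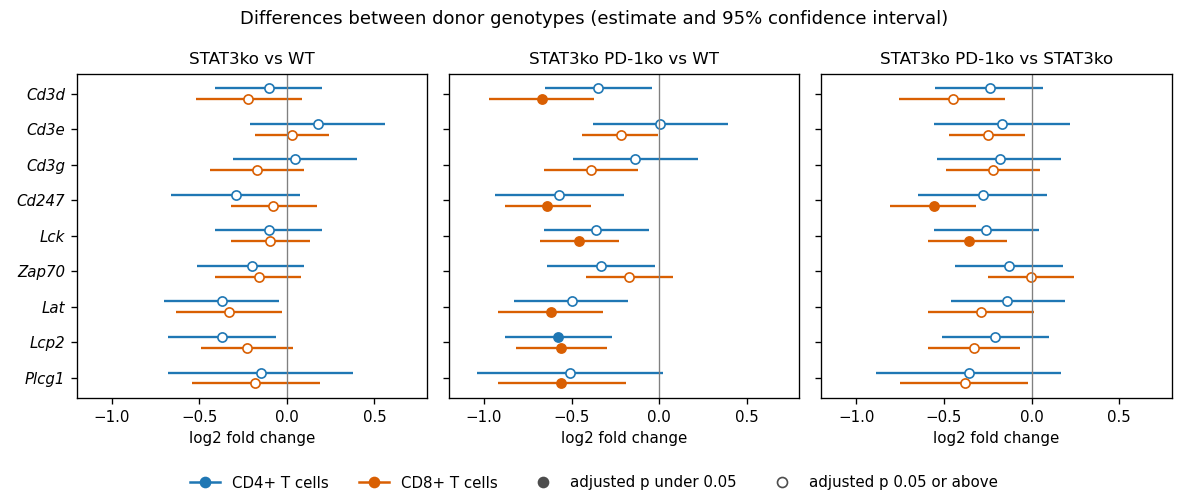
Log2 fold change (x axis) of each gene between donor genotypes, with 95% confidence intervals, in CD4+ (blue) and CD8+ (orange) T cells. Filled points have an adjusted p under 0.05 without the replicate block; for STAT3ko PD-1ko against WT these are Lcp2 among the CD4+ points and 6 genes among the CD8+ points, and Cd247 and Lck in CD8+ T cells against STAT3ko.

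The subsets themselves differed, in tests that did not pair the CD4+ and CD8+ libraries of the same genotype and replicate number. In WT T cells, 4 of the 9 genes were lower in CD8+ than in CD4+ T cells (10.5% of all genes changed and 5.59% were lower), and these were Cd247, Zap70, Lat, and Lcp2. Cd247 was at 741 and 606 CPM in CD4+ and at 415 and 421 in CD8+, with a log2 fold change of -0.69 (SE 0.13, adjusted p = 0.00921). Lcp2 was at 713 and 682 CPM in CD4+ and at 520.2 and 468 in CD8+, a log2 fold change of -0.50 (SE 0.12, adjusted p = 0.0217). For both genes the subsets did not overlap. Zap70 differed by -0.45 (SE 0.10, adjusted p = 0.0209) and Lat by -0.44 (SE 0.12, adjusted p = 0.0482). The 3 CD3 chain genes on chromosome 9 had estimates above 0 in WT, of which Cd3e was the largest at 0.24 (95% confidence interval -0.042 to 0.52, adjusted p = 0.316). The median of the 9 genes was -0.34, beside 0.0019 for all genes. With the replicate block the same 4 genes passed, where 16.3% of all genes changed and 8.45% were lower.

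In STAT3ko, 1 gene was lower in CD8+ than in CD4+ T cells, Zap70 with a log2 fold change of -0.41 (SE 0.10, adjusted p = 0.0356), where 9.62% of all genes changed and 4.82% were lower, and Cd247 was at -0.47 (adjusted p = 0.0549). In STAT3ko PD-1ko, 2 genes were lower, Cd247 at -0.74 (SE 0.13, adjusted p = 0.0131) and Lat at -0.54 (SE 0.12, adjusted p = 0.0372), where 4.14% of all genes changed and 2.50% were lower. With the replicate block, Cd247 (adjusted p = 0.0219), Lat (0.0192), and Lcp2 (0.0257) were also lower in STAT3ko, which makes 4 genes (15.5% of all genes changed and 7.82% were lower), and Lcp2 (0.0107) was also lower in STAT3ko PD-1ko, which makes 3 (7.61% and 4.69%). With 1 library left out, the log2 fold changes in WT ran from -0.83 to -0.53 for Cd247 and from -0.57 to -0.44 for Lcp2. Zap70 ran from -0.51 to -0.41 and Lat from -0.51 to -0.38. Over all genes, fewer changed in each fit that left out 1 library of the genotype compared. The counts of 4, 1, and 2 among the members, without the block, depend on single libraries too. In WT, leaving out CD8+ replicate 1 left 0, CD8+ replicate 2 or CD4+ replicate 2 left Cd247 alone, and CD4+ replicate 1 left Zap70 alone, while each library of the other genotypes left 3, without Lat. In STAT3ko, Zap70 was not called without any one of the 4 STAT3ko libraries, nor without either CD4+ STAT3ko PD-1ko library. Without either CD4+ WT library it was called together with Cd247. In STAT3ko PD-1ko, Lat was called in none of the 12 fits that left out 1 library, and Cd247 was called in 9 of them, the exceptions being those without CD4+ replicate 1, CD8+ replicate 1, or CD8+ replicate 2 of STAT3ko PD-1ko.

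**Figure D4:**
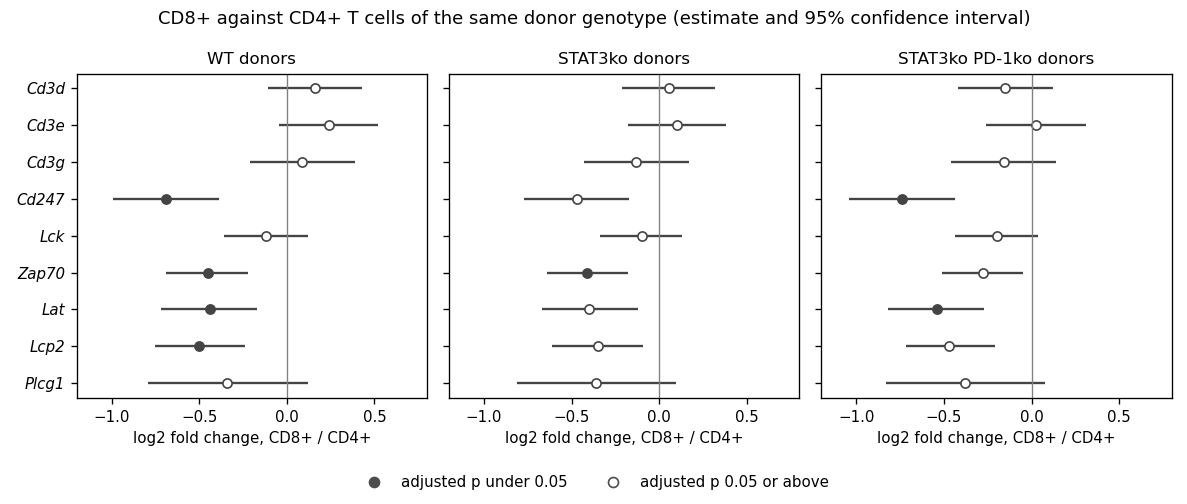
Log2 fold change (x axis) of each gene in CD8+ over CD4+ T cells within each donor genotype, with 95% confidence intervals. Filled points have an adjusted p under 0.05; Cd247, Zap70, Lat, and Lcp2 are filled in WT, Zap70 in STAT3ko, and Cd247 and Lat in STAT3ko PD-1ko.

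The genes whose pattern was most like that of each member were named by the root mean square difference of log2 CPM over the 12 libraries, centred on the mean of the subset, among 8698 genes (8696 for the mean of Cd3d, Cd3e, and Cd3g). For Cd247, whose own root mean square was 0.28, the nearest was Cd2, an adhesion receptor of T cells, at 0.055, followed by Pqlc3 at 0.077. Among the other members Lck was nearest to Cd247, at 0.11 and in place 36. Lcp2 was nearest to Uap1l1 (0.055) and Akap12 (0.061), Lat to Lrig2 (0.073) and Rab4b (0.078), and Plcg1 to Ppp6r2 (0.064) and Usp48 (0.064). Lck was nearest to Zfp747 (0.034) and Mrpl58 (0.047), Zap70 to Fermt3 (0.045) and Nup153 (0.055), and the mean of Cd3d, Cd3e, and Cd3g to Aspscr1 (0.046) and H2-M3 (0.054). The own root mean square was 0.25 for Lcp2, 0.25 for Lat, 0.28 for Plcg1, 0.19 for Lck, and 0.15 for the mean of Cd3d, Cd3e, and Cd3g. For Zap70 it was 0.13, and the nearest member to Zap70, Lck, was at 0.14 and in place 941. Lck was thus no nearer to Zap70 than a profile without change would be.

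Genes that act beside or after the members were grouped in lists taken from textbook knowledge, with earlier results of these data known. In each of the 5 lists, 0 genes changed between STAT3ko and WT in either subset. Of all genes, 5.65% fell and 7.21% rose in CD4+ and 8.21% fell and 9.01% rose in CD8+ STAT3ko PD-1ko against WT, and the shares against STAT3ko were 5.03% and 6.05% in CD4+ and 8.05% and 8.76% in CD8+. The list of genes after PLC-γ1 holds 19 genes, and of these 8 fell and 0 rose in CD4+ STAT3ko PD-1ko against WT (median log2 fold change -0.55), while 10 fell and 1 rose in CD8+ (median -0.48). Against STAT3ko, 6 fell in CD4+ and 11 fell and 1 rose in CD8+. Rasgrp1, which activates Ras on binding diacylglycerol, fell against WT by 0.92 on the log2 scale (adjusted p = 0.00772) in CD4+ and by 1.05 (adjusted p = 0.00294) in CD8+ STAT3ko PD-1ko. The gene that rose was Itpr1, an IP3 receptor that releases calcium, at 161 and 186 CPM in CD8+ WT and 278 and 349 in STAT3ko PD-1ko, a log2 fold change of 0.86 (adjusted p = 0.0127). Another IP3 receptor gene, Itpr2, fell in both subsets against STAT3ko, by 0.88 (adjusted p = 0.0191, lost without STAT3ko PD-1ko replicate 2 like each CD4+ call against STAT3ko) in CD4+ and 1.06 (adjusted p = 0.00360) in CD8+.

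Of 8 further kinases and phosphatases, 1 fell in CD4+ and 5 fell in CD8+ STAT3ko PD-1ko against WT. Txk, a Tec family kinase, fell in both, by 0.92 (adjusted p = 0.0156) in CD4+ and by 1.05 (adjusted p = 0.0197) in CD8+. Fyn, an Src family kinase like LCK, was at 739 and 666 CPM in CD8+ WT and at 382 and 414 in STAT3ko PD-1ko (log2 fold change -0.81, adjusted p = 0.00666). Syk, the relative of ZAP-70, was low throughout (2.55 to 9.28 CPM) and fell by 1.55 (adjusted p = 0.00893) in CD8+ STAT3ko PD-1ko against STAT3ko. Of 14 further adaptors and exchange factors, 13 were tested and 4 fell in each subset against WT. In CD8+ T cells these included Skap1 (-0.96, adjusted p = 0.00493) and its partner Fyb (-0.80, adjusted p = 0.0125), and in CD4+ T cells Trat1 (-1.31, adjusted p = 0.0203) and Nck2 (-0.94, adjusted p = 0.0460).

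Of 18 negative regulators, 1 fell in CD4+ STAT3ko PD-1ko against WT, a share near the 5.65% of all genes that fell, and 4 fell and 1 rose in CD8+, where 8.21% of all genes fell and 9.01% rose. Pag1, which recruits the LCK inhibitor CSK, fell by 0.84 (adjusted p = 0.0484) in CD4+ and by 0.67 (adjusted p = 0.0208) in CD8+. Lax1 fell by 1.35 (adjusted p = 0.0160) in CD8+, and Cblb, a ubiquitin ligase, rose by 0.40 (adjusted p = 0.0492). Dgka, which removes diacylglycerol, fell against STAT3ko by 0.99 (adjusted p = 0.0263) in CD4+ and by 1.21 (adjusted p = 0.0125) in CD8+. Of 14 early response genes of T cell activation, 1 rose and 0 fell in CD4+, and 1 rose and 1 fell in CD8+, although 11 had lower estimates in CD4+ (median log2 fold change -0.64) and 10 in CD8+ (median -0.66). Some of them differed widely between the libraries of a group. Cd69, an early activation marker, was at 1517 and 317 CPM in CD4+ WT and 504 and 192 in CD4+ STAT3ko PD-1ko, and Nr4a1, a nuclear receptor induced by TCR signals, was at 511 and 64.1 and at 175 and 51.7, the replicate 1 library being the higher in each group. Tnfrsf9 (4-1BB) rose by 0.98 (adjusted p = 0.0210) in CD4+, Tnfrsf4 (OX40) rose by 0.92 (adjusted p = 0.0290) in CD8+, and Egr3 fell by 0.90 (adjusted p = 0.0373) in CD8+. Il2ra, the IL-2 receptor α chain, rose against STAT3ko by 0.83 (adjusted p = 0.0263) in CD4+ and 0.71 (adjusted p = 0.0143) in CD8+. Without CD8+ STAT3ko PD-1ko replicate 2, the genes that fell against WT were 2 of the PLC-γ1 list and 0 of the kinases and of the adaptors, and without CD4+ STAT3ko PD-1ko replicate 1 they were 0 in CD4+ for the PLC-γ1 list, the kinases, the adaptors, and the negative regulators. In CD8+ T cells the negative regulators that fell against WT were 0 without WT replicate 2 and 6 without STAT3ko PD-1ko replicate 1. Against STAT3ko the genes of the PLC-γ1 list that fell were 0 to 5 in CD4+ and 0 to 11 in CD8+ when 1 library was left out, with 0 without CD4+ STAT3ko PD-1ko replicate 1 and without CD8+ STAT3ko PD-1ko replicate 2. With DESeq2, which called 2134 genes in place of 1538 in CD4+ and 2697 in place of 2066 in CD8+, the negative regulators that fell against WT numbered 6 in CD4+ and 8 in CD8+. With the replicate block, where 12.2% of all genes fell in CD4+ and 12.1% in CD8+, the genes that fell against WT were 10 of the PLC-γ1 list, 4 of the kinases, 7 of the adaptors, 7 of the negative regulators, and 4 of the early response genes in CD4+, and 11, 5, 7, 6, and 6 in CD8+. Against STAT3ko, where 12.8% of all genes fell in CD4+ and 11.9% in CD8+, they were in the same order 9, 3, 8, 7, and 1 in CD4+ and 13, 6, 6, 3, and 3 in CD8+. The genes that rose with the block against WT were in the same order 1, 1, 0, 1, and 1 in CD4+, where 13.8% of all genes rose. In CD8+ against WT they were 1, 1, 0, 1, and 3, where 12.6% of all genes rose. Against STAT3ko they were 1, 0, 0, 1, and 2 in CD4+, where 13.2% of all genes rose. In CD8+ against STAT3ko they were 1, 0, 0, 1, and 3, where 12.5% of all genes rose. Of the early response genes, as many rose as fell in this last comparison. The genes of the T cell receptor chains themselves were not analysed here.

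**Figure D5:**
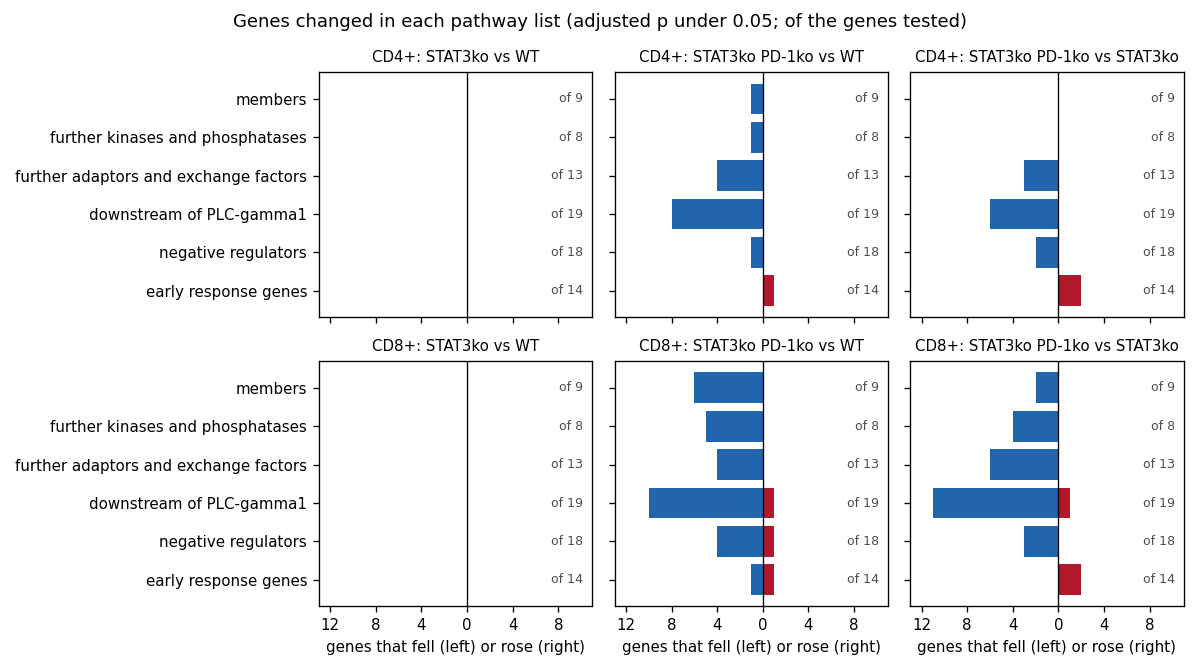
Number of genes in each list that fell (left, blue) or rose (right, red) at an adjusted p under 0.05, without the replicate block, with the number tested at the right, for 3 comparisons in the upper (CD4+) and lower (CD8+) row. The list after PLC-γ1 has the most genes that fell in each panel with any, and STAT3ko against WT has none.

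Other signals moved with the genotype. The summed level of 7 myeloid genes was 56.3 and 68.6 CPM in CD4+ WT and 20.9 and 18.3 in CD4+ STAT3ko PD-1ko, and 98.0 and 99.6 in CD8+ WT and 25.4 and 25.2 in CD8+ STAT3ko PD-1ko. Itgam, which activated T cells also express, had the highest mean over the 12 libraries and was at 68.2 and 66.7 CPM in CD8+ WT and 8.04 and 6.49 in CD8+ STAT3ko PD-1ko (log2 fold change -3.21, adjusted p = 9.0e-04). In the latter libraries Cd68 was higher than Itgam, at 16.9 and 18.3 CPM, against 29.1 and 28.9 in CD8+ WT (log2 fold change -0.71, adjusted p = 0.0154). In CD4+ T cells Cd68 was at 8.27 and 8.68 CPM in WT and 8.57 and 10.3 in STAT3ko PD-1ko (log2 fold change 0.18, adjusted p = 0.640), while Itgam fell from 47.6 and 55.3 CPM, by 2.41 on the log2 scale (adjusted p = 0.00398). Hepatocyte genes (6) summed to 0.753 to 2.37 CPM and B cell genes (5) to 1.63 to 14.7 CPM in all libraries. Of the B cell genes Cd79b had the highest mean and fell from 14.5 and 10.6 CPM in CD8+ WT to 5.92 and 5.10 in CD8+ STAT3ko PD-1ko (log2 fold change -1.18, adjusted p = 0.0149), and by 1.23 against STAT3ko (adjusted p = 0.0143). Clec4f, a Kupffer cell gene, was at 0.0909 and 1.65 CPM in CD4+ WT and 0.222 and 1.48 in CD8+ WT, higher in replicate 2, and at 0.0433 to 0.238 CPM in the 4 STAT3ko PD-1ko libraries. The 5 NK cell genes summed to 71.9 and 80.7 CPM in CD8+ WT and 42.6 and 30.1 in CD8+ STAT3ko PD-1ko, but to 17.0 and 18.0 in CD4+ WT and 31.6 and 24.9 in CD4+ STAT3ko PD-1ko. Klrb1c, with the highest mean of them, fell from 48.9 and 56.2 CPM in CD8+ WT to 22.9 and 11.2 in CD8+ STAT3ko PD-1ko (adjusted p = 0.0280). Fcer1g rose from 5.00 and 6.18 CPM in CD4+ WT to 12.5 and 14.4 in CD4+ STAT3ko PD-1ko (adjusted p = 0.0293), and against STAT3ko it rose by 1.52 on the log2 scale (adjusted p = 0.0234) in CD4+ and by 0.73 (adjusted p = 0.0208) in CD8+. The part of these signals, and of the lower Cd4 and Cd8a, in the lower level of the members was not tested. Cd247 shares 6000 bases with Pou2f1, Plcg1 shares 5314 with Zhx3, and Lcp2 lies within 4930469K13Rik, each on the opposite strand, and whether counting used the strand is not stated. In CD8+ STAT3ko PD-1ko against WT, Pou2f1 was at 0.34 and Zhx3 at -0.32 on the log2 scale, and 4930469K13Rik had 1 to 4 counts in any library.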

How the data were processed

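The authors aligned 51-base single-end reads to mm10 with STAR (version 2.7), used HTSeq-count (version 0.11) with RefSeq genes, and deposited whole-number counts that are not normalized. The deposited RPKM values scale the counts by library size and exon length. The strand setting is not given in the sources used here. The labels carry a culture protocol and a library kit that do not match the study's methods, and neither was used.

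Tests used edgeR (version 4.0.16, R version 4.3.3). Low genes were removed with filterByExpr at a minimum count of 10 and a minimum total of 15, libraries were scaled by TMM, and the quasi-likelihood test was run in 1 fit of the 6 libraries of a subset or, for CD8+ against CD4+ T cells and interactions, of all 12. Changed means a Benjamini-Hochberg adjusted p under 0.05 over all genes. An exact permutation test of 2 libraries against 2 cannot go below p = 0.333, so none is given. Alternatives were DESeq2 (version 1.42.0), limma (version 3.58.1) on log2(RPKM + 1), RLE scaling, all genes with at least 1 count, other sets of libraries, a replicate block, and leaving out each library. The number of falling genes per list was added to these after seeing the data. The promoter motifs were also chosen after seeing the sequences. The script was tested on simulated data. Figures were drawn with matplotlib (version 3.10.9) in Python (version 3.11.15).

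The members and lists were chosen with earlier results of these data known. For each list and comparison, at most 2 rising and 2 falling genes were named, by size of change among those that changed without overlap of libraries. A gene that this rule names is not reported here. Marker genes, and genes that overlap members, were named beside them. The study describes its liver data as combined from replicate experiments and, for receptor sequencing, 2 batches of pools from 3 mice. The titles number the replicate 1 and the replicate 2 libraries in separate runs, so the replicate number was taken to pair the libraries, although the sources used here do not tie a number to a batch outright, and this reading was adopted after the calls with and without a block had been seen. Deviations of replicate 1 from the group mean correlated with r of 0.046 to 0.75 over 15 pairs of groups (median 0.35, 13 over 0.1). Between WT and STAT3ko r was 0.73 in each subset. STAT3ko PD-1ko shared less, with r of 0.35 to WT and 0.21 to STAT3ko in CD4+, and 0.18 and 0.046 in CD8+. The highest r, 0.75, was between CD4+ and CD8+ STAT3ko PD-1ko. All calls that the block added among the members between genotypes involve STAT3ko PD-1ko. The study's methods name no block, so the fit without it stands first and the blocked value beside it where it changes a call.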

Additional observations from a re-analysis of the deposited data

How the results depend on the processing

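With 2 libraries in a group, the number of members that passed the threshold moved between settings. In CD4+ STAT3ko PD-1ko against WT the number, 1 as reported, was 3 with DESeq2, 2 with RLE scaling, 2 with all genes of at least 1 count, 2 with only the 4 libraries compared, and 5 with all 12 libraries in 1 fit. In the same settings Cd3e, at 0.0042 as reported, was at -0.015, -0.010, -0.0031, -0.0071, and -0.017 on the log2 scale. In CD8+ STAT3ko PD-1ko against STAT3ko the number, 2 as reported, was 1 with limma, where Zap70 was at 0.0076 in place of -0.0052. For CD8+ against CD4+ T cells, fits of only the 4 libraries gave 0 in WT (4 as reported), 0 in STAT3ko (1 as reported), and 1 in STAT3ko PD-1ko (2 as reported), and DESeq2 gave 4 in STAT3ko. The cause was not tested, other than that the smaller fits leave fewer libraries to estimate the spread.

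With a replicate block, 6 members passed in CD4+ STAT3ko PD-1ko against WT (all 9 but Cd3e, Cd3g, and Zap70), 5 in CD8+ STAT3ko PD-1ko against STAT3ko, and 4 in STAT3ko CD8+ against CD4+ T cells, and 0 passed in the interactions. The block added calls among the members and removed none, and the comparisons in which it changed none are CD4+ STAT3ko PD-1ko against STAT3ko, STAT3ko against WT in both subsets, and CD8+ against CD4+ T cells in WT. Over all genes, the block gave 3104 in CD4+ STAT3ko PD-1ko against WT (1538 as reported), 3105 against STAT3ko (1324), 303 in CD4+ STAT3ko against WT (40), 2014, 1909, and 939 for the subsets in WT, STAT3ko, and STAT3ko PD-1ko (1294, 1187, and 511), and 28 for the interaction of STAT3ko PD-1ko against WT (1).

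When 1 library was left out, the number of members that passed was 0 to 2 in CD4+ STAT3ko PD-1ko against WT, 0 to 6 in CD8+ STAT3ko PD-1ko against WT, 0 to 3 in CD8+ STAT3ko PD-1ko against STAT3ko, and, for CD8+ against CD4+ T cells, 0 to 3 in WT, 0 to 2 in STAT3ko, and 0 to 1 in STAT3ko PD-1ko. It was 0 in the other comparisons. Their median log2 fold change ran from -0.18 to -0.081 in CD8+ STAT3ko against WT, from -0.43 to -0.23 for the subsets in WT, and from -0.35 to -0.23 in STAT3ko. The sign of single members turned where the estimate was near 0. In CD4+ STAT3ko against WT, Cd3g ran from -0.093 to 0.19 and Plcg1 from -0.43 to 0.090. In CD4+ STAT3ko PD-1ko against WT, Cd3e ran from -0.17 to 0.19 and Cd3g from -0.28 to 0.0033, and in CD8+ STAT3ko PD-1ko against STAT3ko, Zap70 ran from -0.062 to 0.045. For CD8+ against CD4+ T cells, Cd3g ran from -0.060 to 0.25 in WT, and in STAT3ko Cd3d ran from -0.056 to 0.15 and Cd3e from -0.019 to 0.21. Of 324 interaction estimates of the members with 1 library left out, 38 changed sign and 0 passed the threshold, and of 135 in the other settings 0 did either. The interaction ran for STAT3ko against WT from -0.22 to 0.020 (Cd3d), -0.31 to 0.015 (Cd3e), -0.046 to 0.12 (Lat), -0.10 to 0.13 (Lck), -0.27 to 0.25 (Plcg1), and -0.015 to 0.10 (Zap70). For STAT3ko PD-1ko against STAT3ko it ran from -0.18 to 0.048 (Cd3e), -0.13 to 0.094 (Cd3g), and -0.29 to 0.23 (Plcg1), and against WT from -0.21 to 0.10 (Cd247), -0.24 to 0.022 (Lat), -0.20 to 0.033 (Lck), -0.051 to 0.12 (Lcp2), and -0.26 to 0.16 (Plcg1).

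The genes changed in all were more than 1.5 times as many as reported with DESeq2 in CD4+ STAT3ko against WT (264 in place of 40), CD8+ STAT3ko against WT (201 in place of 7), and CD4+ STAT3ko PD-1ko against STAT3ko (2073 in place of 1324). With all genes of at least 1 count they were 165 and 66 in the first 2 of these. For the interactions, DESeq2 gave 75, 3, and 19 for STAT3ko PD-1ko against WT, STAT3ko against WT, and STAT3ko PD-1ko against STAT3ko (1, 0, and 0 as reported), limma 46, 8, and 6, and all genes of at least 1 count 50, 0, and 9. With all 12 libraries in 1 fit they were 164 in CD4+ STAT3ko against WT, 20 in CD8+ STAT3ko against WT, 2462 in CD4+ STAT3ko PD-1ko against WT, and 2299 against STAT3ko. With only the 4 libraries they were 1 and 0 for STAT3ko against WT in CD4+ and CD8+ T cells, and 818, 523, and 201 for the subsets in WT, STAT3ko, and STAT3ko PD-1ko (1294, 1187, and 511 as reported).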

Other observations

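Endothelial, erythroid, and platelet markers were low in all 12 libraries. The summed level was 0.130 to 3.15 CPM for endothelial genes, with Cdh5 the highest on average and Stab2 above it in the library with the highest sum (1.10 against 0.900 CPM), 0 to 0.563 for erythroid genes, and 0 to 0.445 for platelet genes. Sox13, the 1 gene of the γδ T cell list with a row, had 0 to 7 counts.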
